A study of Mus musculus with 21 samples.

Results

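The nuclear lamina and the LINC complex (linker of nucleoskeleton and cytoskeleton) are represented here by 8 genes, picked by their symbols: Lmna, Lmnb1, Lmnb2, Lbr, Emd, Tmpo, Sun1 and Sun2. They are 8 of 22483 genes in the tables, and all 8 were among the 12360 genes with enough counts to be tested. RNA with poly(A) tails was sequenced strand by strand from MEDEP cells, erythroid progenitors grown from mouse embryonic stem cells, of 1 line (BRC5), with 3 biological replicates in each of 7 groups (21 libraries). The cells grew with stem cell factor (SCF) and the glucocorticoid dexamethasone up to 0 h. Both were then taken away and erythropoietin (Epo), the main hormone of red cell formation, was given at 4 U/ml for 12, 24, 36, 48 or 72 h. A further 12 h group received Epo and succinyl acetone (SA), which blocks the making of heme. The question put to the members was how the genes of the nuclear envelope changed while the nuclei of maturing red cells condense.

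The lamina is a mesh of lamin filaments under the inner nuclear membrane, built from A-type lamins (Lmna) and B-type lamins (Lmnb1, Lmnb2). LBR, emerin and the LAP2 proteins of Tmpo sit in or at that membrane and tie the lamina to chromatin, and SUN proteins reach across to nesprins in the outer membrane, which hold the cytoskeleton. Mammalian erythroblasts condense their nucleus and expel it at the end of their maturation, and in many blood cells A-type lamin marks stiff nuclei whereas LBR is known to hold heterochromatin at the nuclear rim.

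The libraries held between 16.7 and 39.3 M estimated counts. Markers of red cells were all detected in every library, and the summed level of 9 of them was 165038 to 433090 CPM at 72 h, against 897 to 1047 CPM at 0 h (counts-per-million after scaling by TMM, the trimmed mean of M-values, as for every CPM value here). Globin transcripts took 79.9 to 89.2% of the transcripts-per-million (TPM) at 72 h, against 0.127 to 0.203% at 0 h. Of the estimated counts, on which the tests were run, they took 31.6 to 37.0% at 72 h, against 0.0466 to 0.0752% at 0 h. The globin share thus differed between the 2 measures, and why was not tested. The median log2 change in TPM over all tested genes was -0.07, -0.31, -2.10, -0.69 and -0.77 in the 5 steps of the time course, and -3.88 at 72 h versus 0 h. After TMM scaling the same medians were -0.13 to 0.00. A rise or fall therefore means one against the middle of all tested genes, and says nothing of amounts per cell. In such bulk libraries fewer cells of a type and less RNA per cell cannot be told apart. By stromal markers 36 h replicate 1 stood apart, with 43.2 CPM over 11 markers, against 0.193 and 0.334 CPM in 36 h replicates 2 and 3. No other library exceeded 1.77 CPM. Late replicates differed in other ways. Globin transcripts took 69.9% of TPM in 48 h replicate 3, against 80.6 and 80.9% in 48 h replicates 1 and 2. The 9 red cell markers summed to 290833 CPM in 48 h replicate 3, against 189373 and 199919 CPM.

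The promoter windows of 4 members with different time courses are shown, each of 300 bases (250 before the annotated start and 50 after), 5′ to 3′ on the gene's own strand, from RefSeq on GRCm38.p6. Capitals mark matches, on either strand, to the letters of these motifs: an E2F site is TTTNNCGC, the CHR element is TTTGAA, the CCAAT box is spelled as its name, and the sites for GATA factors are spelled AGATAA or else with TGATAA.
Lmna, chr3:88503303-88503602, minus strand: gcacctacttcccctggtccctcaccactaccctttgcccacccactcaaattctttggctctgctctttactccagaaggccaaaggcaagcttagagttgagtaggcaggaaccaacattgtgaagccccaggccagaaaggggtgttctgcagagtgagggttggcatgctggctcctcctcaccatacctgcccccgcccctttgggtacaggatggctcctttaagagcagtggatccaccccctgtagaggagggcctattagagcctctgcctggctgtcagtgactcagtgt
Tmpo, second window, chr10:91170501-91170800, minus strand: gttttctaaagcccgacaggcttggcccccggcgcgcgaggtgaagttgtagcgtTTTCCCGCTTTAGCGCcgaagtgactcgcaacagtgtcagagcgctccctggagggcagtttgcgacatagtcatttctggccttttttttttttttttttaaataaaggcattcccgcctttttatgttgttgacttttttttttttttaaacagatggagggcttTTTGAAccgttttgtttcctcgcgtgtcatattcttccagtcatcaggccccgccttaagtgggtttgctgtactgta
Lbr, chr1:181842352-181842651, minus strand: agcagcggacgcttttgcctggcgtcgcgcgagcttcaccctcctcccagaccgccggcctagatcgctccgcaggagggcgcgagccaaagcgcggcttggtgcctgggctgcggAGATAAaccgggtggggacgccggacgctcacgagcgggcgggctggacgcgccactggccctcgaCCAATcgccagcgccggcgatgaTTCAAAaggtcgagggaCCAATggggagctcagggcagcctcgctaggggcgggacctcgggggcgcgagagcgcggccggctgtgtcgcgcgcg
Sun2, chr15:79742487-79742786, minus strand: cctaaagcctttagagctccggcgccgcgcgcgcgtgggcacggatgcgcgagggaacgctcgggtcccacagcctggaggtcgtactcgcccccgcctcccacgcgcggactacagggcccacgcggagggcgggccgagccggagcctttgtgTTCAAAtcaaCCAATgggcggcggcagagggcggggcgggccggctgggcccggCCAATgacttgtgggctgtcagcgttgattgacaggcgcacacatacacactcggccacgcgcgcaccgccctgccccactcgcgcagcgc
The Tmpo window held 2 E2F matches side by side and 1 CHR match, and E2F letters occurred in 5.16% of all 32817 RefSeq windows of this length. The Lbr window held 1 CHR match, 2 CCAAT boxes and 1 GATA match, and the Sun2 window 1 CHR match and 2 CCAAT boxes. CHR letters occurred in 17.9%, CCAAT letters in 37.4% and GATA letters in 18.6% of all windows. The Lmna window shown held none of these 4 motifs, and the other of its 2 windows, not shown, held 1 CCAAT box. Letters of a KLF site (CCNCNCCC, not in capitals) matched 2 times in the Lmna window shown and 1 time each in those of Lbr and Sun2, and were present in 49.5% of all windows. The other Tmpo window held no E2F or CHR match, but 2 CCAAT boxes, 1 GATA match and 3 KLF matches. Of the members not shown, neither window of Lmnb2 held any of these motifs, and that of Emd held 1 CCAAT box. The windows of Sun1 held 2 CCAAT boxes with 2 KLF matches, and 1 CCAAT box. Whether any of these matches acts on the members was not tested.

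All gene positions are from GENCODE M21 on the GRCm38 build, and all 8 genes are protein coding; identifiers are those of the count table, of which that of Sun2 has a newer version in M21. Lmna (ENSMUSG00000028063.15) lies at chr3:88480147-88509956 on the minus strand, Lmnb1 (ENSMUSG00000024590.8) at chr18:56707813-56753424 on the plus strand, and Lmnb2 (ENSMUSG00000062075.13) at chr10:80901203-80918245 on the minus strand. Lbr (ENSMUSG00000004880.11) lies at chr1:181815335-181843046, minus strand, and overlaps Gm26004 on the same strand and Dnah14 on the other. Emd (ENSMUSG00000001964.14) lies at chrX:74254687-74261548, plus strand, and overlaps Gm14686 on the same strand. Tmpo (ENSMUSG00000019961.17) lies at chr10:91147571-91181315 on the minus strand, Sun1 (ENSMUSG00000036817.14) at chr5:139200637-139249840 on the plus strand, and Sun2 (ENSMUSG00000042524.13) at chr15:79724070-79742536 on the minus strand; each overlaps 1 gene of the other strand, namely Gm26765, 4930520M14Rik and Gm16575 in that order. Whether the counting used the strand is not given in the sources used here. Each value is a sum over a gene's transcripts, so lamin A and lamin C, both products of Lmna, and the LAP2 forms of Tmpo are not separated.

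**Figure D1:**
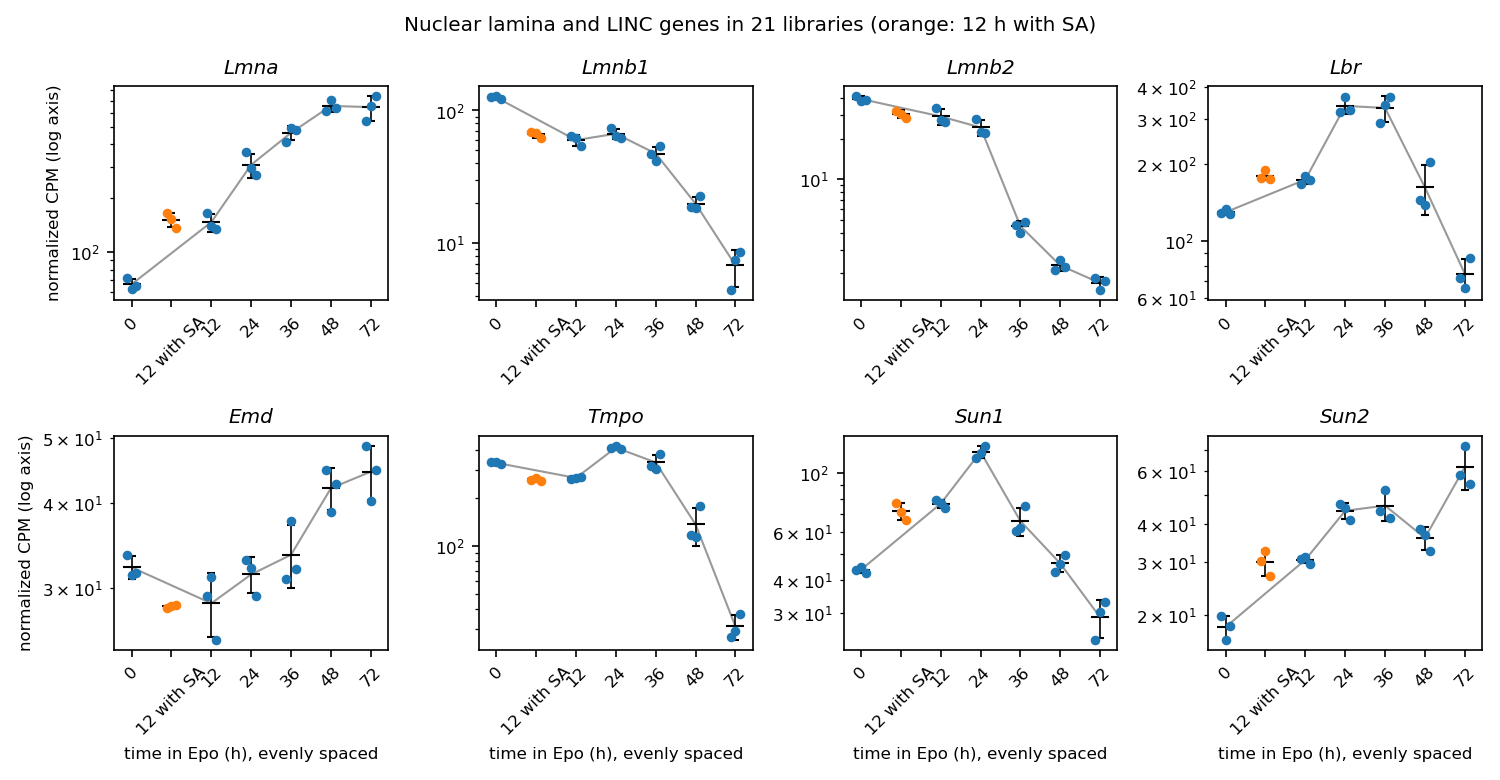
Normalized CPM (log axis) of each gene in the 21 libraries by time in Epo, with SA in orange to the left of its 12 h control; points are replicates, bars the mean ± SD (n = 3), and the grey line joins the means without SA. Lmna reached 654 CPM at 48 h, and Lmnb1 and Lmnb2 were lowest at 72 h. The means of Lbr, Tmpo and Sun1 were highest at 24 h, where Lbr overlapped 36 h.

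Lmna, the A-type lamin gene, rose at each of the first 4 steps and had the largest rise of the 8 members over the course. It had 71.6, 62.2 and 64.7 CPM at 0 h, 166, 140.1 and 135 CPM at 12 h, 359.6, 293 and 269 CPM at 24 h, 414, 496 and 479.5 CPM at 36 h, 615, 709 and 639 CPM at 48 h, and 536, 655 and 739 CPM at 72 h. No library of a later time overlapped one of an earlier time up to 48 h, and 72 h and 48 h overlapped. The log2 change was 1.15 ± 0.13 at 12 h versus 0 h, 1.06 ± 0.13 at 24 h versus 12 h, 0.59 ± 0.13 at 36 h versus 24 h and 0.50 ± 0.13 at 48 h versus 36 h (SE, n = 3 against 3; adjusted p = 1.64e-07, 1.32e-06, 0.000266 and 0.00234 by the edgeR quasi-likelihood test with Benjamini-Hochberg adjustment, as for every adjusted p here). At 72 h versus 48 h the change was -0.02, with a 95% interval of -0.29 to 0.24 (adjusted p = 0.883). At 72 h versus 0 h Lmna was 9.72-fold higher relative to the middle of all genes (3.28 ± 0.14, adjusted p = 2.49e-15), while in TPM it was lower, by a log2 change of -0.45, where the median gene was at -3.88. The TPM change also had the other sign at 36 h versus 24 h (-1.43) and 48 h versus 36 h (-0.17), each above the median gene of that step. In 36 h replicate 1, the library with stromal transcripts, Lmna was the lowest of its group.

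Both B-type lamin genes fell, at different times. Lmnb1 had 126, 129 and 121 CPM at 0 h, 63.9, 62.1 and 53.6 CPM at 12 h, 74.0, 64.2 and 62.4 CPM at 24 h, 46.9, 41.7 and 53.6 CPM at 36 h, 18.6, 18.4 and 22.6 CPM at 48 h, and 4.44, 7.46 and 8.61 CPM at 72 h. It fell at once, by 1.07 ± 0.13 on the log2 scale at 12 h versus 0 h (adjusted p = 7.80e-07), did not pass the test at 24 h versus 12 h (0.16, 95% interval -0.11 to 0.43), and then fell by 0.50, 1.25 and 1.54 in the next 3 steps. By 72 h it was 18.4-fold lower than at 0 h (-4.20 ± 0.16, adjusted p = 7.14e-16).

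Lmnb2, the other B-type gene, had its main fall later. Its values were 41.9, 38.0 and 39.0 CPM at 0 h, 33.8, 27.8 and 26.6 CPM at 12 h, 28.3, 22.4 and 22.2 CPM at 24 h, 4.60, 4.00 and 4.85 CPM at 36 h, 2.10, 2.51 and 2.24 CPM at 48 h, and 1.84, 1.49 and 1.74 CPM at 72 h. The step of 36 h versus 24 h was the largest of any member in a single step, at -2.46 ± 0.13 (adjusted p = 7.47e-13), and the highest 36 h library lay well under the lowest at 24 h. The falls at 12 h versus 0 h (-0.43 ± 0.10, adjusted p = 0.00118) and 48 h versus 36 h (-0.96 ± 0.17, adjusted p = 8.65e-05) were smaller. At 24 h versus 12 h it was called lower (-0.27 ± 0.10, adjusted p = 0.038), a call that was lost without 12 h replicate 1 (-0.16, adjusted p = 0.266), 24 h replicate 2 (-0.22, adjusted p = 0.165) or 24 h replicate 3 (-0.22, adjusted p = 0.159). The adjusted p ranged from 0.000316 to 0.266 over its alternatives. At 72 h versus 48 h the change of -0.43 did not pass (adjusted p = 0.0733), and at 72 h versus 0 h the gene was 23.4-fold lower (-4.55 ± 0.15, adjusted p = 4.70e-17).

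Within a library, shares of the summed TPM of the 3 lamin genes do not depend on the scaling. Lmna made up 33.4 ± 1.30% of lamin TPM at 0 h, 67.6 ± 1.17% at 12 h, 80.7 ± 0.77% at 24 h, 91.8 ± 1.30% at 36 h, 97.4 ± 0.27% at 48 h and 99.0 ± 0.09% at 72 h (SD, n = 3). Lmnb1 held 0.809 ± 0.145% at 72 h, against 54.5 ± 1.72% at 0 h, when it was the leading lamin gene. Lmnb2 held 0.155 ± 0.055% at 72 h, against 12.1 ± 0.43% at 0 h. The ranges of the Lmna share did not overlap between any 2 times, and Lmna had replaced Lmnb1 as the leading lamin gene by 12 h.

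**Figure D2:**
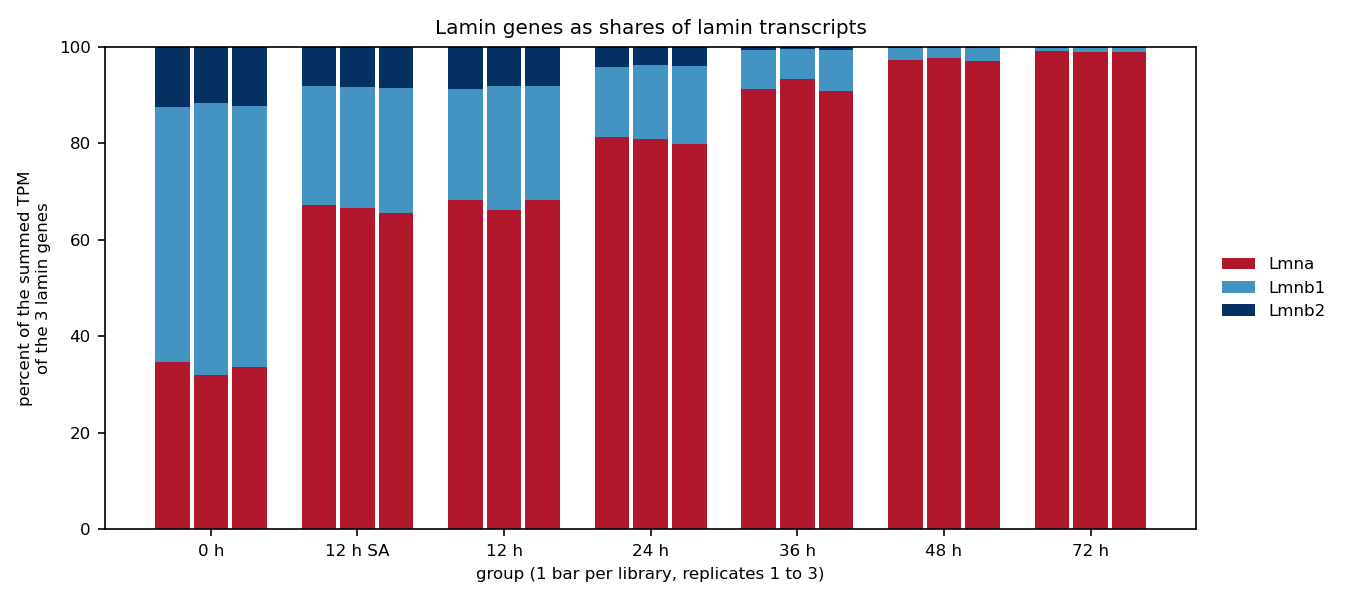
Percent of the summed TPM of Lmna, Lmnb1 and Lmnb2 in each of the 21 libraries (1 bar per library), by group, with 12 h SA to the left of 12 h. Lmna held 99.0 to 99.1% in the 72 h libraries, against 32.0 to 34.6% in the 0 h libraries.

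The inner membrane genes went separate ways. Lbr, which codes for the lamin B receptor, a membrane protein that is also a sterol reductase, rose to a plateau at 24 and 36 h and then fell. It had 129, 133 and 127 CPM at 0 h, 168, 180.5 and 174 CPM at 12 h, 322, 366 and 328 CPM at 24 h, 289.9, 342 and 366 CPM at 36 h, 145, 138 and 204 CPM at 48 h, and 71.9, 65.7 and 85.9 CPM at 72 h. It rose by 0.42 ± 0.12 at 12 h versus 0 h (adjusted p = 0.00615, and 1.54e-06 to 0.286 over all alternatives, with the call lost in TPM) and by 0.96 ± 0.12 at 24 h versus 12 h, and did not pass at 36 h versus 24 h (-0.03, 95% interval -0.28 to 0.23). It fell by 1.03 ± 0.12 at 48 h versus 36 h and by 1.12 ± 0.13 at 72 h versus 48 h (adjusted p = 1.14e-06 and 1.83e-07). At 72 h all 3 libraries lay under all 3 at 0 h (-0.80 ± 0.13, adjusted p = 4.61e-06). The ratio of Lbr to Lmna in TPM was 0.0849 ± 0.0141 at 72 h, against 1.48 ± 0.109 at 0 h.

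Tmpo, the LAP2 gene, had the highest TPM of the 8 members at 0 h and was among those with the largest falls. It had 336, 337 and 326 CPM at 0 h, 262, 269 and 272 CPM at 12 h, 412, 427 and 405 CPM at 24 h, 319, 304.5 and 380.1 CPM at 36 h, 117, 113 and 179 CPM at 48 h, and 26.9, 29.2 and 37.5 CPM at 72 h. Every 12 h library lay under every 0 h library and every 24 h library above both. At 12 h versus 0 h the change was -0.32 ± 0.13 (adjusted p = 0.0554, and adjusted p = 0.0302 with the replicate number as a block; 7.27e-05 to 0.266 over all alternatives). It rose by 0.63 ± 0.14 at 24 h versus 12 h (adjusted p = 0.000798), then fell by 1.29 ± 0.14 at 48 h versus 36 h and by 2.13 ± 0.15 at 72 h versus 48 h. The call of a fall at 36 h versus 24 h (-0.31 ± 0.14, adjusted p = 0.0444) was lost without any one of the 24 h libraries (adjusted p = 0.0534 to 0.0725), without 36 h replicate 1 (0.10) and without 36 h replicate 2 (0.134), and 2.55e-09 to 0.134 was the range over all alternatives. At 72 h Tmpo was 10.7-fold lower than at 0 h (-3.42 ± 0.15, adjusted p = 6.81e-15). In replicate 3 both Tmpo and Lbr were the highest of their group at 36, 48 and 72 h.

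Emd, which codes for emerin, another protein with the LEM domain that LAP2 carries, changed least. It had 33.6, 31.3 and 31.6 CPM at 0 h, 29.2, 31.1 and 25.1 CPM at 12 h, 32.9, 32.0 and 29.2 CPM at 24 h, 30.9, 37.7 and 32.0 CPM at 36 h, 44.8, 38.8 and 42.7 CPM at 48 h, and 48.5, 40.3 and 44.8 CPM at 72 h. It passed the test in 1 of the 5 steps, 48 h versus 36 h (0.32 ± 0.10, adjusted p = 0.0084), which was lost without 36 h replicate 1 (0.26, adjusted p = 0.0555; 4.12e-05 to 0.825 over all alternatives). Set against 0 h, Emd at 72 h was 1.39-fold higher relative to the middle of all genes (0.47 ± 0.09, adjusted p = 9.29e-05), and lower in TPM, at -3.14 against a median of -3.88. Of the summed TPM of Emd and Tmpo, Emd held 17.3 ± 1.14% at 0 h, 13.8 ± 0.41% at 24 h, 44.8 ± 3.99% at 48 h and 78.0 ± 4.12% at 72 h (SD, n = 3).

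The SUN genes rose together up to 24 h and parted afterwards. Sun1 had 43.5, 44.5 and 42.5 CPM at 0 h, 79.0, 77.4 and 73.8 CPM at 12 h, 114, 119 and 126.5 CPM at 24 h, 61.0, 62.2 and 75.4 CPM at 36 h, 42.7, 45.7 and 49.4 CPM at 48 h, and 23.8, 30.1 and 32.8 CPM at 72 h. It rose by 0.82 ± 0.10 and 0.64 ± 0.10 in the first 2 steps, and fell by 0.86 ± 0.10, 0.53 ± 0.10 and 0.67 ± 0.11 in the next 3 (adjusted p between 1.64e-07 and 0.000257 for these 5). Every 72 h library was under every 0 h library, at a log2 change of -0.59 ± 0.10 (adjusted p = 2.13e-05).

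Sun2 had 19.9, 16.6 and 18.4 CPM at 0 h, 30.8, 31.1 and 29.6 CPM at 12 h, 46.4, 45.2 and 41.1 CPM at 24 h, 44.3, 51.8 and 42.0 CPM at 36 h, 38.6, 36.8 and 32.7 CPM at 48 h, and 58.2, 72.6 and 54.1 CPM at 72 h. It rose by 0.74 ± 0.11 at 12 h versus 0 h and 0.54 ± 0.11 at 24 h versus 12 h, and again by 0.77 ± 0.11 at 72 h versus 48 h (adjusted p = 5.00e-06). At 48 h versus 36 h it was called lower (-0.35 ± 0.11, adjusted p = 0.0122), which was lost without 36 h replicate 2 (-0.27, adjusted p = 0.0775) or 48 h replicate 3 (-0.29, adjusted p = 0.0548; 1.55e-05 to 0.0841 over all alternatives). Between the ends of the course, at 72 h versus 0 h, it was 3.36-fold higher relative to the middle of all genes (1.75 ± 0.11, adjusted p = 3.64e-12), but lower in TPM, at -1.89 against a median of -3.88. Sun2 held 22.6 ± 1.52% of the summed TPM of Sun1 and Sun2 at 0 h, 22.0 ± 1.94% at 24 h, 33.5 ± 4.47% at 36 h, 36.6 ± 2.17% at 48 h and 60.3 ± 5.25% at 72 h.

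**Figure D3:**
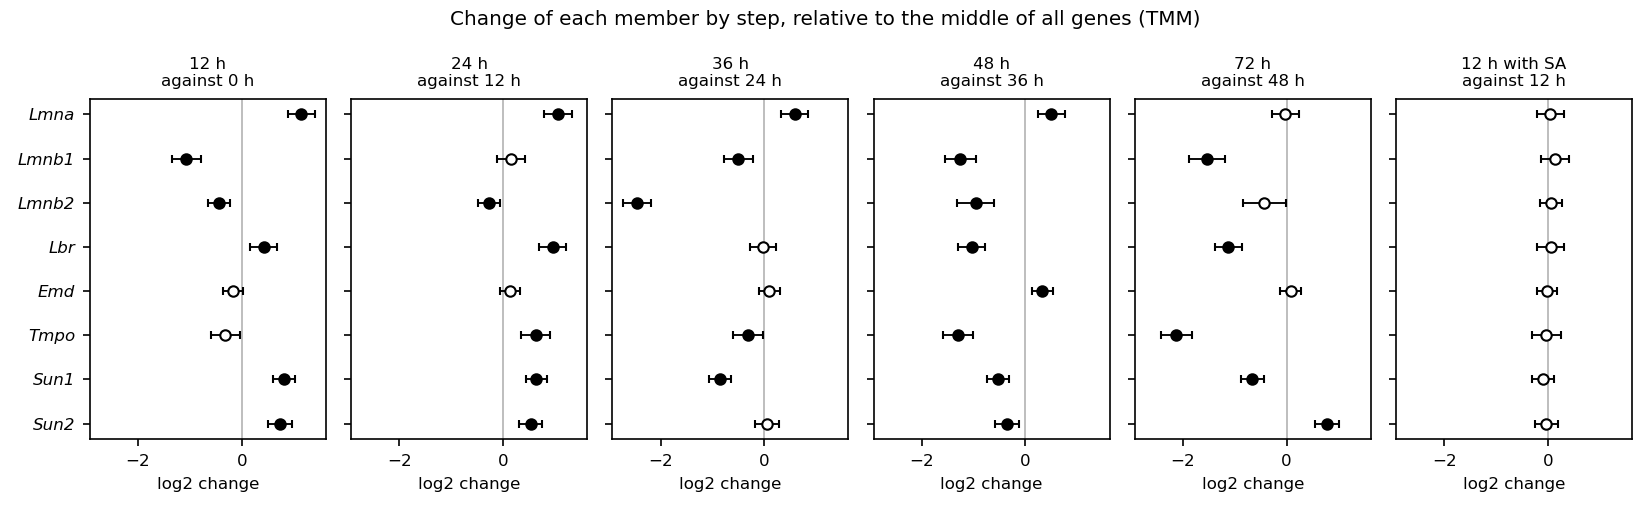
Log2 change (TMM) of each member in the 5 steps of the time course and with SA, with 95% intervals (n = 3 against 3); filled points passed an adjusted p of 0.05. In the first step 4 members rose and 2 fell, at 48 h versus 36 h 2 rose and 6 fell, and with SA none passed.

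Set side by side, the first step had 4 members higher and 2 lower, where 52.9% of all tested genes were called. At 24 h versus 12 h 5 were higher and 1 lower (41.1% of all genes called), and at 36 h versus 24 h 1 was higher and 4 lower (73.2%). At 48 h versus 36 h 2 were higher and 6 lower (49.8%), or 1 higher without 36 h replicate 1, and at 72 h versus 48 h 1 was higher and 4 lower (59.2%). The members' median log2 change in the 5 steps was 0.12, 0.59, -0.17, -0.74 and -0.55, while the median of all genes on this scale lay within -0.07 and 0.00.

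At 72 h versus 0 h 3 members were higher and 5 lower, where 89.8% of all genes were called, and all 3 higher ones were lower in TPM. The ranges of the replicates were apart for 8 of 8 members, as for 89.5% of all genes. Another 2 comparisons were added after the values had been seen. At 24 h versus 0 h 5 members were higher and 2 lower (65.9% of all genes called), and 4 were higher when any 1 of the 6 libraries was left out, since the rise of Tmpo (0.32 ± 0.13, adjusted p = 0.044, and -0.07 in TPM) then did not pass. At 72 h versus 24 h 3 were higher, all lower in TPM, and 5 lower (86.3%), with Sun1 at -2.05 ± 0.11 and Lbr at -2.18 ± 0.13. All 8 varied over the course when the 5 later times were tested against 0 h together, as did 97.6% of all genes.

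With SA 0 of 8 members passed the test, where 0.38% of all genes were called. Lmna had 164, 154 and 137 CPM at 12 h with SA, against 166, 140.1 and 135 CPM at 12 h (0.04, 95% interval -0.22 to 0.30). The largest difference was that of Lmnb1, with 68.7, 67.5 and 61.7 CPM with SA, against 63.9, 62.1 and 53.6 CPM without (0.14, 95% interval -0.13 to 0.41). The 95% intervals of the 8 members lay within -0.31 and 0.41, no unadjusted p was under 0.05 (smallest 0.298), and DESeq2 also called 0. The share of Lmna in lamin TPM was 66.5 ± 0.89% with SA and 67.6 ± 1.17% without (SD, n = 3 each).

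Compared per length, in TPM, Lmna led at 72 h with 54.7 ± 19.3 TPM, apart from the next gene. Emd (7.27 ± 2.65), Lbr (4.70 ± 1.86), Sun2 (2.80 ± 0.27), Tmpo (2.00 ± 0.69) and Sun1 (1.86 ± 0.42) followed, each overlapping its neighbour. Lmnb1 (0.445 ± 0.184) and Lmnb2 (0.0857 ± 0.0386) came last, apart from each other and from Sun1. At 0 h the order was Tmpo (307 ± 4.18), Lmnb1 (123 ± 3.60), Lbr (111 ± 4.13), Lmna (75.0 ± 3.10), Emd (64.3 ± 4.53), Sun1 (35.5 ± 0.51), Lmnb2 (27.1 ± 1.04) and Sun2 (10.4 ± 0.95), with no overlap between neighbours (SD, n = 3).

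Over the 7 group means of log2 CPM, the members fell into pairs with like and unlike courses, which are given as a description since all points come from the same libraries. Lmnb1 had a Pearson r of 0.93 with Tmpo and 0.89 with Lmnb2, Lmna and Sun2 0.88 and Lbr and Sun1 0.86, while Lmna and Lmnb2 had -0.91 and Lmnb2 and Emd -0.90. Among 8993 genes averaging 100 or more counts, those nearest to Lmna were Ormdl3 (0.999), Hps4 (0.998) and Parvb (0.997). Nearest to Lmnb1 were Slc41a3 (0.998), Slc2a3 (0.997) and Smc6 (0.997), and nearest to Lmnb2 Khk, Ybx1 and Tmem206 (0.999 each). Lbr was nearest to Gsk3a (0.995), Stard4 (0.992) and Cldn34c1 (0.989), and Tmpo to Espl1 (0.996), Acadl (0.995) and Knl1 (0.995). Sun1 was nearest to Lpcat3 (0.999), Olfm1 (0.993) and Miga2 (0.992), Sun2 to Hdac6 (0.990), D8Ertd738e (0.981) and Trappc2l (0.979), and Emd to Wtap (0.995), Nktr (0.989) and Ptbp2 (0.988).

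**Figure D4:**
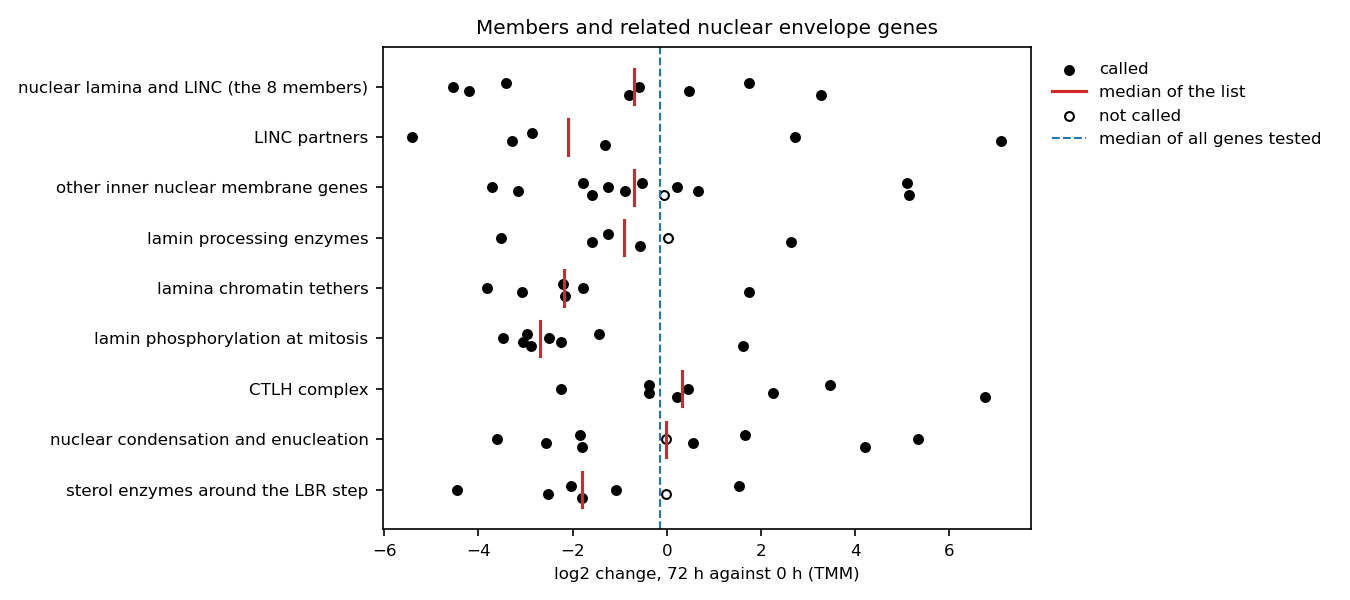
Log2 change (TMM) at 72 h versus 0 h of the 8 members and of the tested genes of 8 related lists; filled points passed an adjusted p of 0.05, the red bar is the median of a list and the blue line that of all tested genes (-0.13). Most lists hold genes on both sides, from Lrmp at -5.40 to Ranbp10 at 6.77 among those named; on the TPM scale the median of all genes is at -3.88.

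The genes that work with the members were counted at 72 h versus 0 h, when 43.3% of all genes were called higher and 46.5% lower, with a median of -0.13. Of the 9 LINC partners (nesprins and other SUN or KASH genes) 6 were tested, with 2 higher and 4 lower and a median of -2.09. Syne3, the gene of nesprin-3, was higher at 43.6 ± 1.57 CPM at 72 h, against 6.56 ± 0.83 CPM at 0 h (2.73 ± 0.18), and lower in TPM (-0.91). Syne2, the gene of nesprin-2, was lower at 2.77 ± 0.48 CPM, against 26.9 ± 2.19 CPM, and Lrmp, a membrane protein gene, at 1.35 ± 0.30 CPM, against 57.0 ± 1.75 CPM. A list of 12 other genes held inner nuclear membrane genes together with torsins and their activators. Of these 4 were higher and 7 lower, with a median of -0.71, and 2 of the 4 were lower in TPM. Tor1aip2 reached 2861 ± 306 CPM at 72 h, against 80.2 ± 2.76 CPM at 0 h, and Tor1aip1 1095 ± 219 CPM, against 31.6 ± 1.11 CPM. Both code for activators of the torsin ATPases of the nuclear envelope, and both were also higher in TPM (1.31 and 1.24). They overlap on opposite strands of chromosome 1, so that reads from the overlap cannot be assigned where the strand was not used. Tmem201 (-3.70 ± 0.21) and Nrm (-3.16 ± 0.23), genes of inner membrane proteins, had the largest falls of that list.

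Of 6 genes linked to the processing of lamins 1 was higher and 4 were lower, with a median of -0.90. Zmpste24, the protease that matures prelamin A, fell to 6.70 ± 0.63 CPM at 72 h, against 76.8 ± 2.15 CPM at 0 h (-3.52 ± 0.12), and Icmt, the methyltransferase of the same route, changed by -1.59 ± 0.10. The 1 higher was Narf, whose product binds prelamin A (2.65 ± 0.15), and it was lower in TPM (-1.23). Of the 6 genes that tether chromatin to the lamina 1 was higher and 5 lower (median -2.18). Cbx5, the HP1 alpha gene, fell to 33.2 ± 6.59 CPM, against 467 ± 11.5 CPM, and Banf1, which codes for the factor that binds LEM domains, changed by -3.07 ± 0.11. Prr14, which links HP1 to the lamina, was higher (1.75 ± 0.09) and lower in TPM (-1.68).

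A list of 9 genes was drawn up for the phosphorylation of lamins at mitosis, though not all of them code for lamin kinases. Of these 8 were tested, with 1 higher and 7 lower at 72 h versus 0 h (median -2.69). Cdk1, the mitotic kinase, was at 7.04 ± 1.41 CPM, against 77.9 ± 3.50 CPM, and Vrk1, the kinase of Banf1, at 8.44 ± 0.94 CPM, against 69.5 ± 3.14 CPM. Prkcd, a protein kinase C gene, was the 1 higher (1.62 ± 0.16), and lower in TPM (-2.20). The same list had 6 of 8 higher and 1 lower at 24 h versus 0 h, when 65.9% of all genes were called with a median of 0.03. None of the 6 were lower in TPM. The mean CPM of Tmpo, Lbr and Sun1 was highest at 24 h as well, though Lbr at 24 h (339 CPM) overlapped 36 h (332 CPM). Whether this list and these members changed for a shared reason was not tested. Of 7 sterol enzymes next to the reaction that LBR catalyses, 6 were higher and 1 lower at 24 h versus 0 h (median 1.72, against 0.03 for all genes), and 1 higher and 5 lower at 72 h versus 0 h (median -1.81). Msmo1, a demethylating oxidase of sterols, had 33.3 ± 1.04 CPM at 0 h, 240 ± 25.4 CPM at 24 h and 96.6 ± 15.2 CPM at 72 h, when it was lower in TPM (-2.19 against 0 h). Dhcr7, the last reductase of the route, was at 5.14 ± 0.67 CPM at 72 h, against 113 ± 4.23 CPM at 0 h, and Ebp, a sterol isomerase gene, at 2.66 ± 0.19 CPM, against 15.4 ± 0.71 CPM.

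Of 8 genes of the CTLH ubiquitin ligase, which is known to mark proteins for removal, 5 were higher, 4 of them lower in TPM, and 3 lower at 72 h versus 0 h, with a median of 0.33. Ranbp10, a CTLH subunit gene, reached 5334 ± 1084 CPM at 72 h, against 48.9 ± 1.94 CPM at 0 h (6.77 ± 0.15), and was also higher in TPM (2.90). Wdr26, another subunit gene, had 2995 ± 220 CPM at 48 h and 2124 ± 338 CPM at 72 h, against 192 ± 2.31 CPM at 0 h. At 72 h versus 0 h it was higher (3.46 ± 0.11), but lower in TPM (-0.19). Gid4 (-2.25 ± 0.09) and Maea (-0.38 ± 0.08), also subunit genes, fell. Of 9 genes of nuclear condensation and enucleation 4 were higher, 2 of them lower in TPM, and 4 lower (median -0.02). The late steps differed. At 36 h versus 24 h 5 were higher, 3 of them lower in TPM, and 2 lower (median 0.81, 73.2% of all genes called). At 48 h versus 36 h 3 were higher, all lower in TPM, and 5 lower (median -0.57, 49.8%). At 72 h versus 48 h 0 were higher and 8 lower (median -1.18, 59.2%). Xpo7, the nuclear export receptor gene, had 5724 ± 275 CPM at 48 h and 2795 ± 442 CPM at 72 h, against 68.8 ± 0.98 CPM at 0 h. Trim58, the gene of a ubiquitin ligase that acts on dynein, reached 142 ± 25.6 CPM at 72 h, against 7.63 ± 0.48 CPM at 0 h. Both were also higher in TPM at 72 h versus 0 h (1.66 and 0.44). Hdac2, a histone deacetylase gene, changed by -3.61 ± 0.12 and Diaph3, a formin gene, by -2.58 ± 0.19. With SA no gene of any of the 8 lists was called, where 0.38% of all genes were called. At that share lists of this size would hold few calls or none.

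Markers of other cell types were summed beside these results. Of 6 macrophage markers, C1qa and C1qb were at 0 in every 0 h library and averaged 0.0648 and 0.0211 CPM at 72 h, and the sum of the list, mostly Csf1r, was 8.81 to 11.3 CPM at 72 h, against 0.482 to 0.63 CPM at 0 h. Of 7 megakaryocyte markers, Ppbp was at 0 in all 21 libraries and Pf4 averaged 0.0871 CPM at 72 h and 0 at 0 h. Gp9 averaged 0.504 CPM at 0 h, 38.6 CPM at 36 h and 6.89 CPM at 72 h. Gp1ba averaged 3.21 CPM at 0 h, 16.5 CPM at 48 h and 6.16 CPM at 72 h. The sum of that list was 599.8 to 993 CPM at 72 h, against 17.5 to 22.1 CPM at 0 h, with 1527 to 1662 CPM at 48 h. Without Itga2b, left out after its values were seen, it was 11.3 to 17.2 CPM at 72 h, against 3.81 to 3.93 CPM at 0 h. At 36 h that smaller sum was 48.7 to 58.8 CPM. Mast cell markers (6 genes) summed to 31.8 to 36.1 CPM at 72 h, against 13.5 to 19.5 CPM at 0 h, with Mcpt4 averaging 28.5 CPM, against 0.042 CPM, Ms4a2 0.28 CPM, against 7.75 CPM, and Mcpt8 at 0 in all libraries. The 7 neutrophil markers summed to 1.75 to 4.44 CPM at 72 h, against 0 to 0.0741 CPM at 0 h, mostly Mpo, while S100a8 and S100a9 were at 0 in all libraries. All 12 stromal markers summed to 24.3 to 45.9 CPM at 72 h, against 17.2 to 21.1 CPM at 0 h, with 120.4 to 160.4 CPM at 36 h, and 11 of them (without Col5a1, left out in the same way) to 0.583 to 1.77 CPM at 72 h, against 0.191 to 1.43 CPM at 0 h. The part of these cell types in the members' changes was not tested.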

How the data were processed

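The deposited data are a table of estimated counts, in which the authors left each gene unscaled for depth, and a table of their TPM (transcripts-per-million), both with the 21 libraries as columns. Whole numbers made up 78.5% of the estimated counts (tolerance 1e-06). The submitters' processing notes name kallisto, STAR 2.5.3a, DESeq2, GRCm38.p5 and mm10, and which tool made which table is not given in the sources used here. Estimated counts were rounded, filtered with filterByExpr (minimum count 10), scaled by TMM and fitted in 1 quasi-likelihood model of the 7 groups (edgeR 4.0.16 in R 4.3.3). Each of the 7 planned and 2 added comparisons was a 2-sided contrast of group means, with Benjamini-Hochberg adjustment over all 12360 tested genes and a threshold of 0.05. Standard errors were taken from the F statistic (the size of the change over its root) and are approximate, as are the 95% intervals made from them. The biological coefficient of variation was 11.6%, and the spread measured is that between 3 replicates whose cultures the labels do not describe further. Every pair of replicates differed by more than sampling noise, and late pairs differed most. The chi-square per gene between replicates was 6.04 to 24.3 in the groups up to 36 h. At 48 h it was 20.1 to 132 and at 72 h 78.4 to 244.

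The members and gene lists were chosen with earlier results of these data known. Named were all members, the 2 called genes of a list with the largest change in each direction (mean count of at least 100), and the 3 genes most correlated with each member. The CTLH list was planned with further genes, which are not reported here, and its counts are over the genes left. As alternatives the model was run with size factors of DESeq2, with no filter, with library sizes without globin genes, on the compared libraries alone, with the replicate number as a block and with each library left out, beside DESeq2 1.42.0 and limma 3.58.1 on log2(TPM + 1) or log2(TPM + 0.1). Replicate numbers were taken to pair libraries where the deviations from group means of same-numbered libraries correlated above 0.1 in all 3 pairs (9001 genes). This held for 12 h versus 0 h (0.111 to 0.381), 24 h versus 12 h (0.300 to 0.473), 72 h versus 48 h (0.240 to 0.305) and SA against 12 h (0.351 to 0.375). Relative to the median gene, the ratio of the estimated count to TPM of each member stayed within 0.909 and 1.13 of its value at 0 h. The fit was also run on simulated counts with the same means in every group, apart from a small set of genes changed by known folds. Such counts could not test the scaling at 72 h versus 0 h, where 89.8% of all genes were called. Promoters and annotation were read with Python 3.11.15 and pandas 2.3.3, and figures drawn with matplotlib 3.10.9. The RefSeq protein sequences of the members were not used here, nor was the promoter of Lmnb1.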

Additional observations from a re-analysis of the deposited data

How the results depend on the processing

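On TPM scales, which are set by the whole library, signs turned. With log2(TPM + 1) and log2(TPM + 0.1) the changes were, at 72 h versus 0 h, -0.51 and -0.52 for Lmna, -3.04 and -3.20 for Emd, and -1.58 and -1.86 for Sun2; at 72 h versus 24 h, -2.31 and -2.33 for Lmna, -2.59 and -2.75 for Emd, and -2.53 and -2.87 for Sun2. At 36 h versus 24 h they were -1.41 and -1.42 for Lmna, -1.91 and -1.99 for Emd, and -1.92 and -2.10 for Sun2. They were -0.20 in both for Lmna and -0.059 and -0.070 for Emd at 48 h versus 36 h, -0.62 and -0.69 for Emd at 72 h versus 48 h, and at 24 h versus 12 h -0.16 in both for Lmnb1 and -0.25 and -0.26 for Emd. For Tmpo they were -0.066 and -0.067 at 24 h versus 0 h and 0.011 in both with SA. With either pseudocount 0 members were higher and 8 lower at 72 h versus 0 h, 72 h versus 24 h and 36 h versus 24 h, and 0 were higher at 48 h versus 36 h and at 72 h versus 48 h, where log2(TPM + 0.1) gave 7 lower. At 24 h versus 12 h 3 and 2 were higher. Over all tested genes the median log2 change in TPM was -3.88 at 72 h versus 0 h and -3.53 at 72 h versus 24 h. It was -2.10 at 36 h versus 24 h, -0.69 at 48 h versus 36 h and -0.77 at 72 h versus 48 h. The share of all genes called on these scales is not given here, so these counts do not set the members apart.

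On counts, DESeq2 gave 4 lower at 12 h versus 0 h, and 0 were lower at 24 h versus 12 h with no filter, with the compared libraries alone and with DESeq2. Over the libraries left out in turn this number was 0 to 1, and that of higher members at 48 h versus 36 h was 1 to 2. The other values that changed sign were of members not called. For 36 h versus 24 h they were Lbr with size factors of DESeq2 (0.0047), DESeq2 (0.0048), the compared libraries alone (0.034) and libraries left out (-0.11 to 0.051), Sun2 with no filter (-0.034) and libraries left out (-0.047 to 0.11), and Emd with libraries left out (-0.0082 to 0.14). For 72 h versus 48 h they were Lmna with size factors of DESeq2 and with DESeq2 (0.11 each), the compared libraries alone (0.072) and libraries left out (-0.15 to 0.089), and Emd with no filter (-0.0056). With libraries left out, Emd ranged from -0.069 to 0.016 for 24 h versus 0 h, and the changes with SA from -0.019 to 0.14 for Lmna, -0.010 to 0.17 for Lmnb2, -0.099 to 0.051 for Emd and -0.096 to 0.043 for Sun2. The cause of these shifts was not tested. The replicate block turned no sign and ended no call, and it added 1 call, Tmpo at 12 h versus 0 h (-0.32, adjusted p = 0.0302), which made 3 members lower there. Where the numbers did not pair the libraries, the block gave 3 higher and 5 lower at 72 h versus 0 h. Lmnb2 at 48 and 72 h rests on the fewest counts of the members (1.49 to 2.51 CPM per library).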
